A study of Mus musculus with 9 samples.

Results

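Autosomal transcript levels in tissue of the paraventricular thalamus were compared between mice killed 7 days and mice killed 1 day after lipopolysaccharide. The comparison takes in all genes of chromosomes 1 to 19, which are 20731 of the 21899 genes in the table, and 3 libraries per day. It addresses how the acute response had resolved after a week and which transcripts rose over that week. The filter on low counts left 14300 of the 20731 for testing, and 3041 were without a single read. Members were chosen by chromosome alone, so no measured value entered the choice.

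The paraventricular thalamus (PVT) is a nucleus of the dorsal midline thalamus that takes part in arousal and wakefulness. All mice were wild type (WT), with no transgene named in the labels, and received 1 of 2 agents into the peritoneal cavity. The groups were PBS (phosphate-buffered saline) at 1 day, LPS (lipopolysaccharide, an outer membrane component of Gram-negative bacteria) at 1 day and LPS at 7 days, with 3 libraries each. No PBS group at 7 days was analysed here, so the level in PBS mice at 1 day is set beside the values only as a reference. Fresh PVT tissue was taken, and whole tissue RNA was sequenced, so fewer cells of a type and less RNA per cell cannot be told apart. The labels give no age, sex or dose, and do not say that the 3 libraries of a group came from separate animals, so the p-values measure the spread between these libraries, which may be technical.

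LPS is sensed by Toll-like receptor 4, whose signalling activates NF-kB and, through interferon regulatory factors, the production of type I interferon. Interferons act through their receptors on a large set of genes that restrict viruses and bacteria, while interleukin-6 family cytokines act through STAT3 on acute phase genes. In brain, endothelial cells, microglia and astrocytes carry most of this response to an injection outside the brain, and the accompanying release of corticosterone induces glucocorticoid receptor targets. Negative regulators such as NFKBIA, SOCS3 and USP18 end these signals.

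Libraries held 13211422 to 17210526 counts. Levels are given as CPM, the usual depth-scaled count, with library totals corrected by TMM, and changes as log2 fold changes (LPS at 7 days over LPS at 1 day, with SE) from edgeR's quasi-likelihood test with Benjamini-Hochberg adjusted p-values over all 14837 genes tested. A gene is called higher or lower where its adjusted p is under 0.05. Replicates lay close, with Spearman's rho of 0.9965 to 0.9972 across genes within groups. A further 2 features set groups apart. Genes that mark cerebellar neurons summed to 4243 to 4299 CPM in the LPS libraries at 7 days, against 1400 to 1441 CPM in those at 1 day and 1610 to 1678 CPM in PBS, so that the region from which tissue was taken and the day after LPS cannot be told apart. Y-linked counts were 1060 to 1669 in the 6 LPS libraries and 0 to 1 in the PBS libraries, as between male and female tissue. Both LPS days carry these counts. Sex, which the labels do not give, and LPS therefore cannot be told apart in any difference from PBS given below. The part of sex in those differences was not tested. Of the PVT markers, Drd3 lay at 0.490 to 2.35 CPM over the 9 libraries, while Calb2 lay at 71.6 to 163 CPM.

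Between 1 and 7 days after LPS, 3943 autosomal genes were higher (27.6% of those tested) and 4180 were lower (29.2%), so 56.8% changed. The 3 libraries of one day lay entirely above or below those of the other for 60.8% of genes, with 7 days above for 29.6% and below for 31.2%. Most of these changes were small: the median absolute log2 fold change over all 14300 genes was 0.2685 and the median was -0.001. At least 2-fold changes were called for 460 genes higher (3.22%) and 650 lower (4.55%). At least 4-fold changes were called for 112 higher (0.783%) and 191 lower (1.34%). Of the 191, 71 belonged to the lists of the acute response (interferon, cytokine, acute phase, complement, antigen presentation, NF-kB, reactive glia, activated endothelium, glucocorticoid and metallothionein genes) and none to the lists of cerebellar, hindbrain and monoamine neurons. Of the 112, 35 belonged to those regional lists and 1 to the acute lists. Among these large changes, members of the acute lists were mostly lower and members of the regional lists were higher, as the plot of fold change against level shows. The lists were chosen with earlier results of these data known. These counts therefore describe their members and measure no enrichment over all genes.

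**Figure D1:**
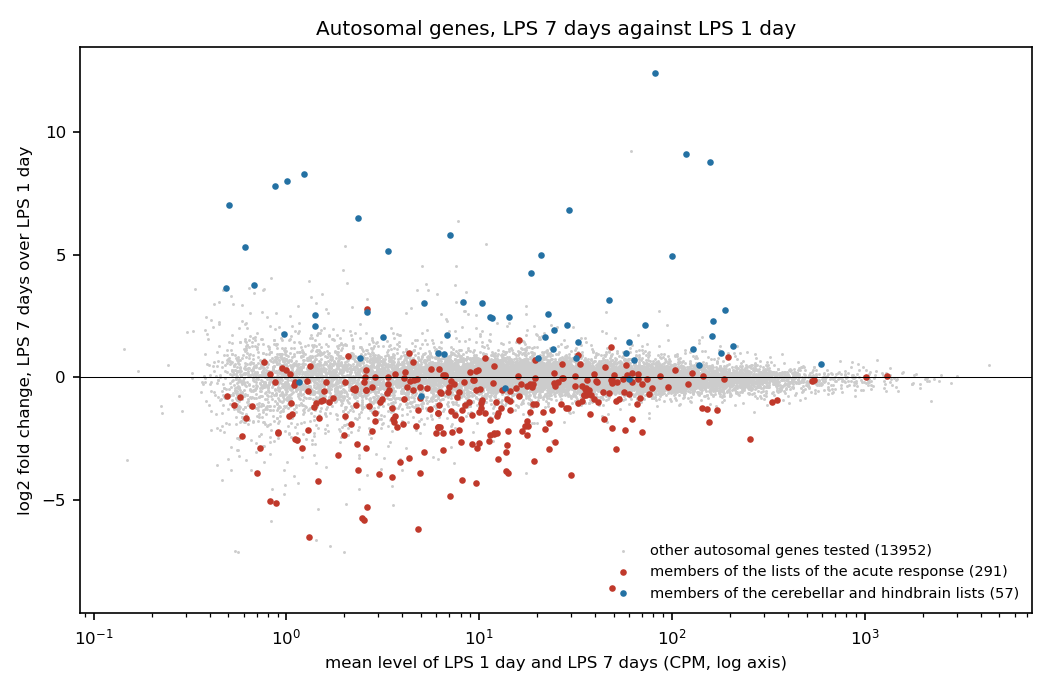
Each point is 1 of the 14300 tested autosomal genes, placed by its mean level in the 2 LPS groups (CPM, log axis) and its log2 fold change, LPS 7 days over LPS 1 day. Red points, members of the acute response lists, lie mostly below 0, with Lcn2 lowest at -8.60, and blue points, members of the cerebellar and hindbrain lists, lie mostly above 0, with Gabra6 highest at 12.42.

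Interferon-stimulated genes fell almost throughout. Of 45 tested members of this list, 42 were lower at 7 days than at 1 day, 0 were higher, and the 3 that did not pass (Samhd1, Nmi and Ifi203, named after their values were seen) had log2 fold changes of -0.04, 0.00 and 0.13. At an unadjusted p under 0.05 the number higher was 0 with edgeR. Against the background of 29.2% lower and a median of -0.001, the list stood at 93.3% lower and a median of -1.87. Its summed level was 311 to 321 CPM in PBS, 820 to 825 CPM at 1 day and 271 to 283 CPM at 7 days. The sum therefore lay below every PBS library at 7 days. Of the 45, 4 met the filter on low counts only through the libraries at 1 day, and all 4 were called lower. Set against PBS in the same fit, 17 of the 45 were lower at 7 days and 1 was higher, beside 18.8% lower and 16.9% higher of all genes.

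Promoters of 5 genes that fell are shown because interferon is known to act through the interferon-stimulated response element (ISRE), which was found in them. These 5 were picked for holding a match. Among other genes named here that fell, Oasl2, Lgals3bp and Cxcl9 held no match, while Gbp3 and Gbp5 did. The ISRE was searched as GAAA, any 2 bases and GAAA, on both strands and with overlaps counted, in the 250 bases before the start site, using RefSeq promoters of GRCm38.p6. It was found in 14 of 36 list members with a promoter in the table (38.89%) and in 9 of 10 interferon-inducible GTPases (90.0%), against 936 of 27025 genes of the table (3.46%). Of the 14 list members with a match 12 were called lower at 7 days, not a larger share than the 42 of 45 of the whole list. Sequences are given 5′ to 3′ along the gene's strand, with matches in capitals. Ifit3 lies on the plus strand with its window at chr19:34583279-34583528, Ifit1 on the plus strand at chr19:34640639-34640888, Irgm1 on the minus strand at chr11:48871421-48871670, Gbp2 on the plus strand at chr3:142620413-142620662 and Cxcl10 on the minus strand at chr5:92348890-92349139.
Ifit3: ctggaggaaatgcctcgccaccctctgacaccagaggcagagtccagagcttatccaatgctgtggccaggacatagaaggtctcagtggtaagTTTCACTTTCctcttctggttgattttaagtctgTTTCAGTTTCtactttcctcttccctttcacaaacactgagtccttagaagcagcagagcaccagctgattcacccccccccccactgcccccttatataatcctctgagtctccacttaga
Ifit1: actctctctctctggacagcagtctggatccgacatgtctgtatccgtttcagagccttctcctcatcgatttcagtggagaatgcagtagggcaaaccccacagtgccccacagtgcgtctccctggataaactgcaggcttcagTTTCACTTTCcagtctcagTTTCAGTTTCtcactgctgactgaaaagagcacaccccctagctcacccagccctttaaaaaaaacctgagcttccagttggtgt
Irgm1: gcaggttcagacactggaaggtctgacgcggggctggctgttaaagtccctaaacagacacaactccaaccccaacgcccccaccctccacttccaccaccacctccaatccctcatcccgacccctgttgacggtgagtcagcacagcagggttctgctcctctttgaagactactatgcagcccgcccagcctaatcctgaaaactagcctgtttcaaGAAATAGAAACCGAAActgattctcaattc
Gbp2: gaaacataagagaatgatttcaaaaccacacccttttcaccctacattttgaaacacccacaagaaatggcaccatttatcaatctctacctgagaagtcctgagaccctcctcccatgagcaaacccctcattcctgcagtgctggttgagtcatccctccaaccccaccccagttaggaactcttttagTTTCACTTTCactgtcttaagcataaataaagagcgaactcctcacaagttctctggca
Cxcl10: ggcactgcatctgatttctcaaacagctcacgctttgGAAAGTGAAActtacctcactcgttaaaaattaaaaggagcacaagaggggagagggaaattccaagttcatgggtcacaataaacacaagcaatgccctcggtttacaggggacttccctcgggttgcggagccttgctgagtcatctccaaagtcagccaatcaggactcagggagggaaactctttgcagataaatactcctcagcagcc
Ifit3 and Ifit1 each hold 2 matches on the opposite strand, Irgm1 holds 2 that overlap, at -30 and -24 from the start site, and Gbp2 and Cxcl10 hold 1 each. A match is a run of letters, and binding was not measured.

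Ifit3, an RNA-binding antiviral effector (GRCm39 chromosome 19, 34560931 to 34566131, plus strand), stood at 9.17, 9.37 and 8.52 CPM in PBS, 55.9, 56.9 and 57.2 CPM at 1 day and 3.86, 3.58 and 3.14 CPM at 7 days. The 3 groups did not overlap, and the libraries at 7 days were the lowest of all. Its log2 fold change between the LPS days was -4.01 ± 0.10 (adjusted p = 1.2e-35), a 16.1-fold lower level, and it lay 1.36 ± 0.13 below PBS on the log2 scale (adjusted p = 1.9e-12). Ifit1, of the same family, went from 26.4, 27.97 and 25.01 CPM to 1.10, 1.85 and 2.31 CPM, with 4.58, 4.68 and 6.07 CPM in PBS. Here too all libraries at 7 days lay below all PBS libraries (log2 fold change between the LPS days -3.90 ± 0.16, against PBS -1.53 ± 0.20). Oasl2, a 2′-5′ oligoadenylate synthetase-like protein, fell from 39.4, 40.7 and 41.8 CPM to 4.72, 5.43 and 5.86 CPM, below its 7.70, 8.86 and 8.38 CPM in PBS. Lgals3bp, a secreted galectin-binding glycoprotein, fell from 81.2, 82.4 and 73.8 CPM to 16.5, 21.1 and 18.7 CPM and had stood at 34.8, 29.8 and 30.7 CPM in PBS. These 4 members thus ended the week under the level of the PBS libraries, with adjusted p between 1.9e-12 and 6.2e-05 for that difference.

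The interferon-inducible GTPases, which attack the vacuoles of intracellular pathogens, fell as a block: 13 of 14 tested members were lower and 0 higher (median -2.35), and the remaining one, Gvin1, had a log2 fold change of -0.79 without passing (named after its values were seen). No member was higher at an unadjusted p under 0.05 either (0 members, edgeR). The filter on low counts was met by 2 of the 14 only through the libraries at 1 day, 1 of them called lower. It was met by 1 only through those at 7 days. Irgm1, which regulates this family, went from 41.5, 42.2 and 44.1 CPM at 1 day to 6.31, 5.74 and 7.99 CPM at 7 days, beside 7.64, 7.34 and 6.75 CPM in PBS. Its libraries at 7 days overlapped those of PBS (-0.12 ± 0.13 against PBS, adjusted p = 0.52) and lay far below those at 1 day (-2.67 ± 0.10, adjusted p = 5.2e-28). Gbp2, a guanylate-binding protein, fell from 27.7, 23.2 and 22.9 CPM to 3.31, 2.28 and 3.19 CPM and Gbp3 fell from 32.1, 29.2 and 27.5 CPM to 5.52, 5.86 and 5.86 CPM. Both ended below PBS, at -0.65 ± 0.18 and -0.46 ± 0.13 on the log2 scale. Gbp5, which promotes inflammasome assembly, fell by 2.62 ± 0.15 and did not pass against PBS (-0.39 ± 0.19, adjusted p = 0.11). Members of this family and the H2 and Ifi families have near-identical copies, so reads may be split between copies and single values are uncertain.

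Antigen presentation split by class. MHC class I genes, which show peptides of the cell's own proteins to CD8 T cells, were lower for 15 of 18 tested members and higher for 0 (median -0.82). Here 1 of the 18 met the filter on low counts only through the libraries at 1 day and was called lower. Tap1, a subunit of the peptide transporter, went from 24.2, 22.9 and 25.99 CPM to 3.86, 3.46 and 3.49 CPM, with 4.94, 3.48 and 5.18 CPM in PBS, and Nlrc5, the transactivator of class I genes, from 10.5, 8.41 and 8.95 CPM to 1.04, 1.48 and 0.828 CPM. Both differences were far beyond the spread of the libraries (-2.76 ± 0.13 and -3.04 ± 0.24). H2-K1, a class I heavy chain, fell by 1.33 ± 0.09 to a level -0.01 ± 0.11 from PBS (adjusted p = 0.97). Of 8 tested MHC class II genes, 1 was lower (Ctss, a lysosomal protease, -0.65 ± 0.07) and 1 was higher (Ciita, the class II transactivator, 0.85 ± 0.28), a share of 25% against the background of 56.8%. Ciita lost its call without LPS 7 days replicate 3 (adjusted p = 0.12). H2-Ab1, a class II beta chain, was not called between the LPS days (0.44 ± 0.36, adjusted p = 0.3), and at 1.72, 1.67 and 1.24 CPM it lay above its 0.411, 0.316 and 0.204 CPM in PBS (adjusted p = 6.8e-05).

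Acute phase and iron-binding genes held the single deepest fall. Lcn2, lipocalin 2, which withholds iron from bacteria by binding siderophores (GRCm39 chromosome 2, 32274645 to 32278264, minus strand), had 1311, 1528 and 1565 counts at 1 day and 1, 7 and 4 counts at 7 days, beside 1, 2 and 1 in PBS. That is 101, 95.2 and 95.2 CPM against 0.0613, 0.432 and 0.237 CPM, a log2 fold change of -8.60 ± 0.15, and no library at 7 days came near one at 1 day. Saa3, a serum amyloid A, fell from 9.40, 11.1 and 7.97 CPM to 1, 0 and 5 counts. Steap4, a metalloreductase, fell from 15.7, 15.9 and 14.5 CPM to 0.429, 0.864 and 1.18 CPM. Serpina3n, a serine protease inhibitor made by reactive astrocytes, stood at 73.4, 68.6 and 63.2 CPM in PBS, 437, 433 and 424 CPM at 1 day and 72.1, 75.8 and 78.7 CPM at 7 days. It fell by 2.51 ± 0.05, and 2 of its 3 libraries at 7 days stayed above all PBS libraries, a difference of 0.14 ± 0.05 (adjusted p = 0.025). Cp, the copper ferroxidase ceruloplasmin, fell by 1.52 ± 0.07. Of the 19 autosomal members 11 were not tested, and 3 of the 8 tested met the filter on low counts only through the libraries at 1 day, where they were high, so the 7 lower members describe these genes and not the list. Itih3, a hyaluronan-binding matrix protein, was higher (0.17 ± 0.05). Per length, on the deposited FPKM scale, Serpina3n was the more abundant at 1 day, with a mean of 205 FPKM against 36.4 for Lcn2.

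Further genes stood among the 12 largest falls that were nearly absent at 7 days, so their size is best read as count ratios. Tigit, an inhibitory receptor of T and NK cells, had 14, 18 and 19 counts at 1 day and 0 in all 3 libraries at 7 days, at least 18.5-fold lower when a total of 3 counts per group is taken as floor. Snorc, a transmembrane proteoglycan known from cartilage, was at least 17.4-fold lower by the same rule. Ifi209, an interferon-inducible DNA sensor family member, had 48, 75 and 58 counts against 0, 1 and 0, a ratio of 197 (95% counting interval 34.9 to 7816). Itih4, an acute phase protein, had a ratio of 164 (29.0 to 6528), Hao1, a hydroxyacid oxidase known from liver, 141 (24.9 to 5626) and Csf3, the granulocyte colony-stimulating factor, 127 (22.4 to 5067). Cyp3a57 had 82.6 (14.4 to 3307) and Lrit3 47.1 (15.8 to 231.5). These intervals cover counting error only. Msr1, a macrophage scavenger receptor, fell from 4.55, 5.36 and 5.05 CPM to 0.123, 0 and 0.118 CPM, and Slc10a6, a steroid sulfate transporter, from 4.32, 4.92 and 5.23 CPM to 0.0613, 0 and 0.177 CPM. All 12 falls had been raised at 1 day over PBS (edgeR adjusted p of at most 4.8e-04, the value of Snorc).

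**Figure D2:**
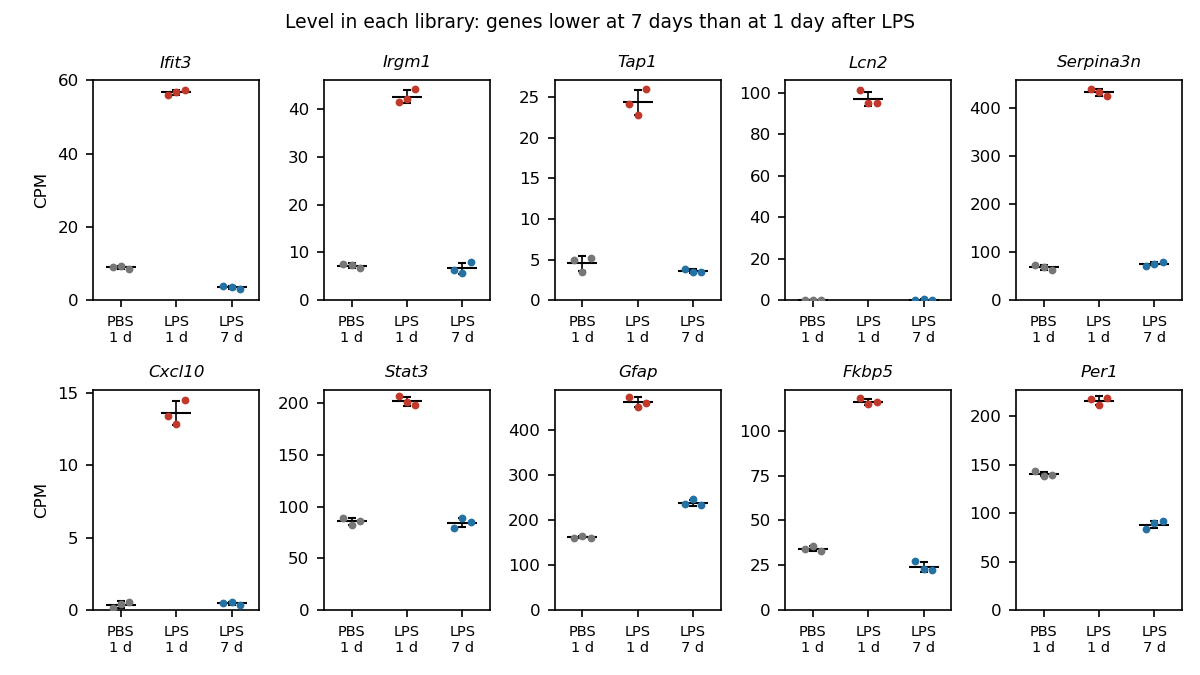
Levels (CPM, linear axes from 0) of 10 genes that were lower at 7 days than at 1 day after LPS, with 1 point per library and the mean ± SD of 3 libraries per group. Irgm1 and Stat3 at 7 days overlap PBS, Gfap stays above PBS at 234, 246 and 233 CPM, and Ifit3, Fkbp5 and Per1 lie below PBS.

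Chemokines and cytokines, the secreted signals that recruit leukocytes, were called lower for 11 of 17 tested members and higher for 2 (median -0.51), and 12 of the 29 autosomal members were too low to be tested, among them Il6, Il1b, Tnf and Ccl2. Of the 17, 7 met the filter only through the libraries at 1 day, and 6 of these are among the 11 called lower. Another 1 met it only through the libraries at 7 days and was not called higher. Cxcl10, which attracts activated T cells, stood at 0.118, 0.443 and 0.545 CPM in PBS, 13.4, 12.8 and 14.5 CPM at 1 day and 0.490, 0.555 and 0.355 CPM at 7 days. It fell by 4.84 ± 0.24 to a level that overlapped PBS, and Cxcl9, a ligand of the same receptor, fell by 4.23 ± 0.51. The 2 that rose had dipped at 1 day. Cxcl12, a homeostatic chemokine of endothelium, went from 62.2, 61.3 and 63.7 CPM in PBS to 30.7, 30.03 and 25.8 CPM at 1 day and 66.7, 67.3 and 70.3 CPM at 7 days. Its libraries at 7 days lay above those of both other groups, with a rise of 1.24 ± 0.07 between the LPS days, while the difference from PBS did not pass (0.13 ± 0.06, adjusted p = 0.09). Il33, an alarmin of oligodendrocytes and astrocytes, went from 36.6, 34.4 and 35.6 CPM in PBS through 22.4, 22.2 and 21.4 CPM at 1 day to 35.7, 29.4 and 30.5 CPM at 7 days, a rise of 0.54 ± 0.08.

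Among TLR4 and NF-kB genes, 17 of 28 were lower, 1 was higher and 10 did not pass (median -0.40). That is 64.3% called, against 56.8% of all genes, of which 29.2% were lower. The filter on low counts was met by 1 of the lower members only through the libraries at 1 day. Cd14, the co-receptor that hands LPS to Toll-like receptor 4, fell from 9.56, 9.66 and 10.2 CPM to 2.57, 1.73 and 2.90 CPM, with 2.76, 2.21 and 2.73 CPM in PBS. Lbp, the LPS-binding protein of plasma, fell from 30.1, 31.7 and 24.1 CPM to 7.48, 6.60 and 7.16 CPM, which lay below its 9.99, 10.2 and 10.9 CPM in PBS. Nfkbia, the inhibitor that holds NF-kB in the cytoplasm, fell from 38.4, 39.7 and 41.8 CPM to 17.6, 16.4 and 16.4 CPM and also ended below its 20.4, 22.8 and 22.4 CPM in PBS (adjusted p = 3.5e-04). All 3 genes were lower in every library at 7 days than in any at 1 day. Another inhibitor of the family, Nfkbie, went the other way, with 2.35, 2.59 and 2.25 CPM in PBS, 2.93, 2.99 and 2.74 CPM at 1 day and 5.39, 5.49 and 6.27 CPM at 7 days (0.99 ± 0.19, adjusted p = 2.1e-05). Its 7 day libraries lay above all others. The kB motif, written GGGA, any base and TTTCC and searched in the same windows on both strands, was found in 2 of 19 members with a promoter (10.53%) and in 4 of 21 chemokines and cytokines (19.05%), against 112 of 27025 genes (0.41%). Among the members with a match, 1 of the 2 and 2 of the 4 were called lower, and 0 were called higher.

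In the IL-6 and STAT3 list 9 of 14 genes were lower and 0 higher (median -0.24, 0 higher at an unadjusted p under 0.05 with edgeR). That is 64.3% called, against 56.8% of all genes. With scaling to the library totals alone 1 was called higher. Stat3 itself stood at 89.1, 82.6 and 85.9 CPM in PBS, 207, 201 and 198 CPM at 1 day and 79.7, 88.97 and 85.3 CPM at 7 days. The libraries at 7 days overlapped PBS (-0.02 ± 0.05, adjusted p = 0.79), and the fall from 1 day was 1.25 ± 0.05. Socs3, the feedback inhibitor that STAT3 induces, fell from 12.1, 14.02 and 15.8 CPM to 2.88, 2.10 and 1.66 CPM, and Il1r1, the interleukin-1 receptor, from 19.6, 17.3 and 18.1 CPM to 6.37, 7.40 and 9.17 CPM. Osmr, the oncostatin M receptor subunit, fell from 36.5, 36.4 and 33.96 CPM to 8.03, 8.95 and 7.57 CPM and remained above its 5.52, 6.01 and 4.43 CPM in PBS (0.61 ± 0.13, adjusted p = 1.8e-04). Inflammasome and pyroptosis genes were lower for 7 of 13 and higher for 0 (median -0.58, 0 higher at an unadjusted p under 0.05), which is 53.8% called against 56.8% of all genes. Of these Nek7, a kinase that activates NLRP3, went from 64.7, 77.8 and 64.3 CPM to 36.7, 36.8 and 36.9 CPM, beside 36.3, 36.5 and 36.6 CPM in PBS, and Nlrp3, the sensor, fell by 1.69 ± 0.36. Among the 13 inflammasome genes, 1 met the filter on low counts only through the libraries at 1 day and was called lower.

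Complement genes, the opsonins and proteases that tag cells for phagocytosis, were lower for 11 of 16 tested members and higher for 1 (median -1.07). Here 2 of the 16 met the filter on low counts only through the libraries at 1 day, 1 of them called lower. C1qb, a chain of the initiating complex that microglia make, went from 42.5, 40.6 and 40.3 CPM to 16.5, 15.7 and 18.6 CPM, with 17.9, 19.3 and 16.8 CPM in PBS, and C1qa fell by 1.07 ± 0.08. C4b, which astrocytes and other glia express, stood at 25.1, 25.8 and 25.8 CPM in PBS, 64.5, 67.5 and 72.6 CPM at 1 day and 35.9, 33.8 and 34.1 CPM at 7 days. It fell by 0.98 ± 0.06 between the LPS days, and its libraries at 7 days lay between those of the other groups without overlap (0.44 ± 0.07 against PBS, adjusted p = 1.4e-06). Cd59a, which blocks the lytic pore, was the member that rose (0.44 ± 0.12). With library size or upper-quartile scaling, and without LPS 1 day replicate 3, 2 members were called higher.

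Reactive astrocyte genes fell in part. Of 28 tested members 19 were lower, 4 were higher and 5 did not pass (median -1.14), and the summed level of the list was 569 to 587 CPM in PBS, 1565 to 1614 CPM at 1 day and 764 to 791 CPM at 7 days, above PBS at both days. Most of the excess over PBS at 7 days was in Gfap and Aqp4. Against PBS 9 of the 28 were higher at 7 days, 3 were lower and 16 did not pass. The filter on low counts was met by 2 of the 28 only through the libraries at 1 day, both called lower. It was met by 1 only through those at 7 days, called higher. Gfap, the intermediate filament of astrocytes (GRCm39 chromosome 11, 102778162 to 102791738, minus strand; named after its values were seen), had 160.1, 165 and 161 CPM in PBS, 473, 452 and 459.9 CPM at 1 day and 234, 246 and 233 CPM at 7 days. It fell by 0.96 ± 0.04 and remained 0.55 ± 0.04 above PBS (adjusted p = 4.1e-17), with no overlap between any of the groups. The 4 members that rose were Aqp4, B3gnt5, Vim and Nes, of which Vim and Nes were named after their values were seen. Aqp4, the water channel of astrocyte endfeet, went from 143, 143 and 142 CPM to 258, 246 and 247 CPM, above its 156, 153 and 152 CPM in PBS, after a level at 1 day that lay below PBS. B3gnt5, a glycosphingolipid synthase, went from 0.540, 0.498 and 0.913 CPM to 4.23, 5.43 and 4.02 CPM. Vim, a filament protein, rose by 0.43 ± 0.07 and Nes, the progenitor filament nestin, by 0.76 ± 0.12. Scaled to library totals alone, 7 members were called higher. The cerebellar marker sum rose with these genes, and its part in their rise was not tested.

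Genes of homeostatic astrocytes moved both ways, with 12 of 20 higher and 7 lower (median 0.17). Aldoc, a glycolytic aldolase of astrocytes, stood at 689, 666 and 680.1 CPM at 1 day and 1029, 1066 and 1032 CPM at 7 days, above its 638, 657 and 657 CPM in PBS. Aldoc is also known from Purkinje cells of the cerebellum. Kcnj10, the inward rectifier that buffers potassium, rose by 0.42 ± 0.04. Slc1a2, the main glutamate transporter of the forebrain, went the other way, from 2190.5, 2248 and 2245 CPM to 1651, 1632 and 1603 CPM, below its 1896, 1889 and 1969 CPM in PBS. Glul, glutamine synthetase, fell by 0.37 ± 0.03 to a level overlapping PBS. With library size scaling 4 members in place of 7 were called lower.

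Of 27 tested genes of activated microglia and macrophages 13 were lower, 2 higher and 12 did not pass (median -0.54), which is 55.6% called against 56.8% of all genes. Of the 27, 3 met the filter only through the libraries at 1 day, and all 3 were called lower. Fcgr3, an Fc receptor, went from 11.5, 13.3 and 10.8 CPM to 6.01, 5.43 and 5.98 CPM, beside 4.94, 5.57 and 4.02 CPM in PBS. Spp1, osteopontin, was one of the members that rose, from 6.86, 8.10 and 10.1 CPM to 23.6, 24.4 and 23.7 CPM, and it is also a marker on the hindbrain list, since motor neurons of the brainstem express it. The other, Lyz2, the lysozyme of myeloid cells, stood at 1.76, 1.65 and 1.43 CPM in PBS, 3.70, 3.30 and 3.65 CPM at 1 day and 5.45, 5.80 and 5.21 CPM at 7 days (0.63 ± 0.19). Each step of Lyz2 was upward without overlap. Of 20 homeostatic microglial genes 6 were higher and 7 lower (median -0.09), near the 27.6% and 29.2% of all genes. Here 1 of the 20 met the filter only through the libraries at 1 day and was called lower. P2ry12, the purinergic receptor that guides microglial processes, had 30.7, 30.7 and 32.9 CPM in PBS, 15.6, 15.6 and 14.9 CPM at 1 day and 27.5, 26.5 and 25.6 CPM at 7 days. It rose by 0.78 ± 0.09 without reaching PBS (-0.25 ± 0.08, adjusted p = 0.011). Mef2c, a transcription factor that cortical neurons also express, fell from 354, 349.7 and 364 CPM to 205, 194 and 198 CPM.

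Activated endothelium showed 18 of 23 members lower and 3 higher (median -0.99). Among the 23, 3 met the filter on low counts only through the libraries at 1 day, and these were all called lower. Icam1, which arrests leukocytes on the vessel wall, had 2.35, 2.66 and 2.25 CPM in PBS, 13.1, 13.6 and 11.7 CPM at 1 day and 3.06, 2.59 and 3.02 CPM at 7 days. Lrg1, a glycoprotein that modulates endothelial TGF-beta signalling, went from 7.78, 10.3 and 9.86 CPM to 0.368, 0.802 and 0.651 CPM, and Adamts1, a matrix protease, from 95.9, 91.4 and 92.5 CPM to 23.3, 20.2 and 19.5 CPM. None of these 3 was called different from PBS at 7 days (adjusted p of 0.35, 0.19 and 0.088). Tek, the angiopoietin receptor of quiescent endothelium, dipped from 19.2, 18.4 and 20.9 CPM in PBS to 16.1, 13.9 and 14.7 CPM at 1 day and stood at 23.3, 23.6 and 24.7 CPM at 7 days, a rise of 0.68 ± 0.09. Of 21 endothelial and blood-brain barrier genes 12 were higher and 6 lower (median 0.21). Slco1a4, an organic anion transporter of brain capillaries, went from 44.4, 50.1 and 53.2 CPM in PBS through 32.99, 35.5 and 32.5 CPM at 1 day to 56.8, 53.2 and 53.2 CPM at 7 days. Cdh5, the endothelial cadherin, ran opposite, from 25.3, 21.8 and 24.5 CPM in PBS through 58.2, 55.8 and 59.1 CPM at 1 day to 25.1, 25.7 and 26.6 CPM at 7 days, and Mfsd2a, a lipid transporter of the barrier, fell by 1.06 ± 0.08. None of the 3 was called different from PBS at 7 days (adjusted p of 0.073, 0.28 and 0.54).

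Genes of the vessel wall and meninges differed by class in direction. The share called was 64.3% for pericyte and smooth muscle genes and 68.4% for fibroblast, meningeal and collagen genes. Of all genes 56.8% were called, with 27.6% higher and 29.2% lower. Of 14 pericyte and smooth muscle genes 7 were higher and 2 lower (median 0.25), the latter being 1 under DESeq2, under library size scaling and without LPS 1 day replicates 1 or 3 or LPS 7 days replicates 1 or 2. Rgs5, a pericyte regulator of G protein signalling, stood at 98.1, 99.98 and 94.9 CPM in PBS, 94.3, 90.4 and 97.8 CPM at 1 day and 182, 169 and 166 CPM at 7 days, a rise at 7 days over both. Acta2, smooth muscle actin, rose by 0.47 ± 0.08. Of 19 fibroblast, meningeal and collagen genes 11 were lower and 2 higher (median -0.30). Col4a1, a basement membrane collagen, went from 64.8, 65.9 and 67.5 CPM in PBS through 152, 151 and 149.7 CPM at 1 day to 65.9, 72.6 and 69.6 CPM at 7 days and at 7 days was not called different from PBS. Col6a1 fell from 75.2, 81.6 and 72.6 CPM to 33.2, 30.05 and 29.6 CPM, below its 55.8, 62.1 and 57.5 CPM in PBS. Without LPS 7 days replicate 1 or 2 only 1 gene of this list was called higher.

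Glucocorticoid-responsive genes fell in 26 of 27 tested members and rose in 0, a share of 96.3% called, with a median of -1.36 (Lcn2 is a member of this list as well as of the acute phase list). The summed level was 1338 to 1356 CPM in PBS, 2429 to 2453 CPM at 1 day and 1011 to 1046 CPM at 7 days, so the sum ended below PBS in each library. Against PBS 18 members were lower and 2 higher. The filter on low counts was met by 1 of the 27 only through the libraries at 1 day, and it was called lower. At an unadjusted p under 0.05 the number higher between the LPS days was 0 (edgeR), and the member that did not pass was Dusp1, a phosphatase (0.07 ± 0.06, named after its values were seen). Sgk1, a serum and glucocorticoid kinase, had 168, 169 and 166 CPM in PBS, 245, 245 and 239 CPM at 1 day and 68.8, 67.8 and 66.3 CPM at 7 days. It fell by 1.85 ± 0.04 and lay 1.31 ± 0.04 below PBS (adjusted p = 3.4e-30). Fkbp5, a chaperone that restrains the glucocorticoid receptor, had 34.1, 35.6 and 33.1 CPM, 118, 115 and 116 CPM and 27.4, 23.1 and 22.2 CPM in the same order. Cdkn1a, the cell cycle inhibitor p21, went from 84.9, 92.7 and 94.9 CPM to 10.9, 12.9 and 11.4 CPM and Plin4, a lipid droplet coat protein, from 36.9, 32.8 and 36.4 CPM to 2.70, 3.64 and 3.43 CPM. These 4 genes all ended below every PBS library. The glucocorticoid response element, searched as GNACA, any 3 bases and TGTNC, was present in 3 of 25 members with a promoter (12%), against 119 of 27025 genes (0.44%). All 3 were called lower, as were 26 of the 27 tested members, so the calls do not set members with a match apart. Lcn2, Cdkn1a and Fkbp5 held no match, and Sgk1 held 1 in 1 of its windows.

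Clock genes followed with 18 of 21 lower and 1 higher (median -0.33). Per1, a period gene that glucocorticoids also induce, had 143, 139 and 139.6 CPM in PBS, 219, 212 and 219 CPM at 1 day and 83.9, 89.4 and 91.6 CPM at 7 days, with no overlap between groups. Cry2, its partner repressor, fell by 0.87 ± 0.05 and the PAR bZIP factors Tef and Hlf fell by 0.65 ± 0.04 and 0.61 ± 0.04. All 4 were below PBS at 7 days, as were 14 of the 21 (4 were above). The hour of tissue collection is not given in the labels, and its part in these differences was not tested. The member that was higher, Nfil3, a repressor that alternates with those factors, had 0.27 ± 0.11 and lost its call under DESeq2 (adjusted p = 0.08) and without LPS 1 day replicate 1 or 2 or LPS 7 days replicate 1 or 3 (0.07, 0.12, 0.13 and 0.12). Metallothioneins and NRF2 targets gave 8 of 20 lower and 3 higher (median -0.10), which is 55% called, near the 56.8% of all genes. Here 1 of the 20 met the filter on low counts only through the libraries at 1 day and was called lower. Mt1, a zinc-binding metallothionein, went from 93.01, 102 and 78.5 CPM in PBS through 228, 266 and 247 CPM at 1 day to 79.97, 103 and 106 CPM at 7 days, a fall of 1.36 ± 0.06 to a level that overlapped PBS. Me1, the cytosolic malic enzyme, rose by 0.50 ± 0.06. The number higher was 6 with library size scaling, 5 with upper-quartile scaling and 5 without LPS 7 days replicate 1.

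A small group of falls stopped short of the PBS level. Among called genes with a level at 7 days at least 2-fold above PBS, the largest fall belonged to Lox, a collagen cross-linking oxidase, which had 1.12, 0.570 and 0.273 CPM in PBS, 11.7, 13.3 and 12.6 CPM at 1 day and 2.02, 1.60 and 1.60 CPM at 7 days. Its groups did not overlap, with -2.85 ± 0.19 between the LPS days and 1.36 ± 0.32 over PBS (adjusted p = 6.0e-04). Npc1l1, a sterol transporter known from gut, stood at 2.57, 1.97 and 2.07 CPM at 7 days after 6.32, 5.73 and 3.96 CPM at 1 day. Endou fell by 1.16 ± 0.22, Gnmt, a glycine methyltransferase, by 1.11 ± 0.25 and Avil, an actin-binding protein, by 1.03 ± 0.26, each with a 7 day level more than 1 log2 unit over PBS. Rps26, a ribosomal protein, went from 23.1, 17.6 and 16.2 CPM in PBS through 71.1, 84.2 and 73.6 CPM at 1 day to 37.6, 45.2 and 52.7 CPM at 7 days, and since it has many processed pseudogenes its counts are uncertain.

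**Figure D3:**
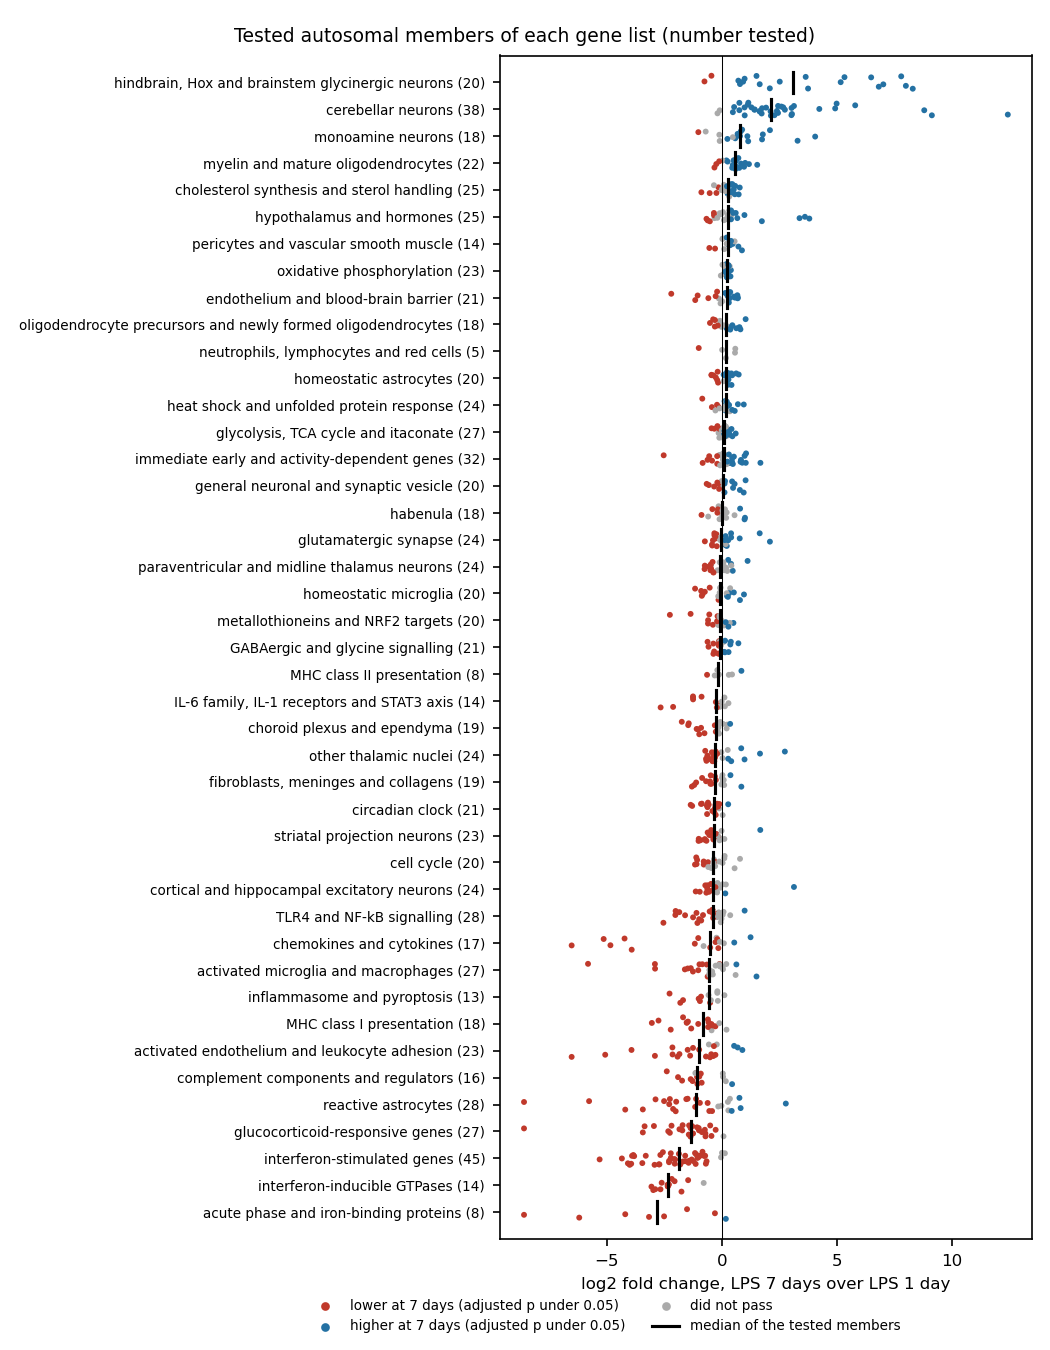
Each row is a gene list with the number of its tested autosomal members, ordered by the median (black tick), and each point is a member at its log2 fold change, LPS 7 days over LPS 1 day, coloured by its call. Acute phase genes (median -2.84 over the 8 tested of 19) and interferon-inducible GTPases (-2.35 over 14 of 16) stand at one end and cerebellar (2.12) and hindbrain genes (3.08 over 20 of 34) at the other. Of the 8 acute phase genes, 3 met the filter on low counts only through the libraries at 1 day. Of the 20 hindbrain genes, 12 met it only through those at 7 days. The medians therefore describe the tested genes and not the lists.

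Rises were led by genes of other brain regions. Of the 12 largest rises, 4 were on the cerebellar and 6 on the hindbrain list, and none exceeded 1.03 CPM (Cbln3) in any library at 1 day. Gabra6, the GABA-A receptor subunit of cerebellar granule cells (GRCm39 chromosome 11, 42197264 to 42211899, minus strand), had 1, 1 and 2 counts in PBS, 0, 0 and 1 counts at 1 day and 2727, 2588 and 2787 counts at 7 days. All 3 libraries at 7 days carried it at 167, 159.7 and 165 CPM, and the ratio of counts between the LPS days was 7451 (95% counting interval 1337 to 294300). Cbln3, a granule cell synaptic organiser, went from 0.694, 0.374 and 1.03 CPM to 315, 312 and 318 CPM, Fat2, a protocadherin of granule cells, from 0.231, 0.685 and 0.304 CPM to 222, 238 and 251 CPM, and Pcp2, a Purkinje cell protein, from 0.540, 0.125 and 0.122 CPM to 11.9, 12.96 and 16.7 CPM. Cnpy1 had 128, 118 and 121 CPM at 7 days against 0.0771, 0.374 and 0.122 CPM at 1 day. Dao, the D-amino acid oxidase of hindbrain astrocytes, had 16.1, 14.9 and 14.8 CPM against 0.0771, 0.249 and 0.183 CPM. Of 38 cerebellar genes 36 were higher and 0 lower (median 2.12), beside 27.6% of all genes higher, and 35 were also higher than in PBS. At an unadjusted p under 0.05 the number lower was 0 (edgeR). Among the 38, 5 met the filter on low counts only through the libraries at 7 days, where they were high, and these 5 were all called higher.

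Of the hindbrain genes, 18 of 20 tested members were higher and 2 lower (median 3.08). A further 14 of the 34 autosomal members were too low for the test. Of the 20, 12 met the filter only through the libraries at 7 days, where they were high, and all 12 were called higher. The 18 higher members and the median therefore describe these genes and not the list. Slc6a5, the glycine transporter of brainstem and spinal glycinergic neurons, had 0.294, 0.443 and 0.409 CPM in PBS, 0.540, 0.374 and 0.609 CPM at 1 day and 54.7, 59.2 and 59.6 CPM at 7 days. Among the Hox genes that pattern the caudal hindbrain, Hoxa5 had 32, 35 and 32 counts at 7 days and 0 in all 3 libraries at 1 day, at least 30.4-fold higher with a floor of 3 counts over the group. By the same rule Hoxc4 was at least 26.4-fold and Hoxa4 at least 15.3-fold higher, each from 0 counts at 1 day. Tlx3, a factor of brainstem excitatory neurons, had a count ratio of 105 (28.8 to 874.7), and Pax2, a marker of inhibitory hindbrain interneurons, went from 0, 0.374 and 0.122 CPM to 5.70, 6.91 and 7.04 CPM. Slc17a8, a vesicular glutamate transporter, was one of the lower members (-0.76 ± 0.20). Summed, the list stood at 122 to 134 CPM in PBS, 90.1 to 96.6 CPM at 1 day and 219 to 238 CPM at 7 days.

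**Figure D4:**
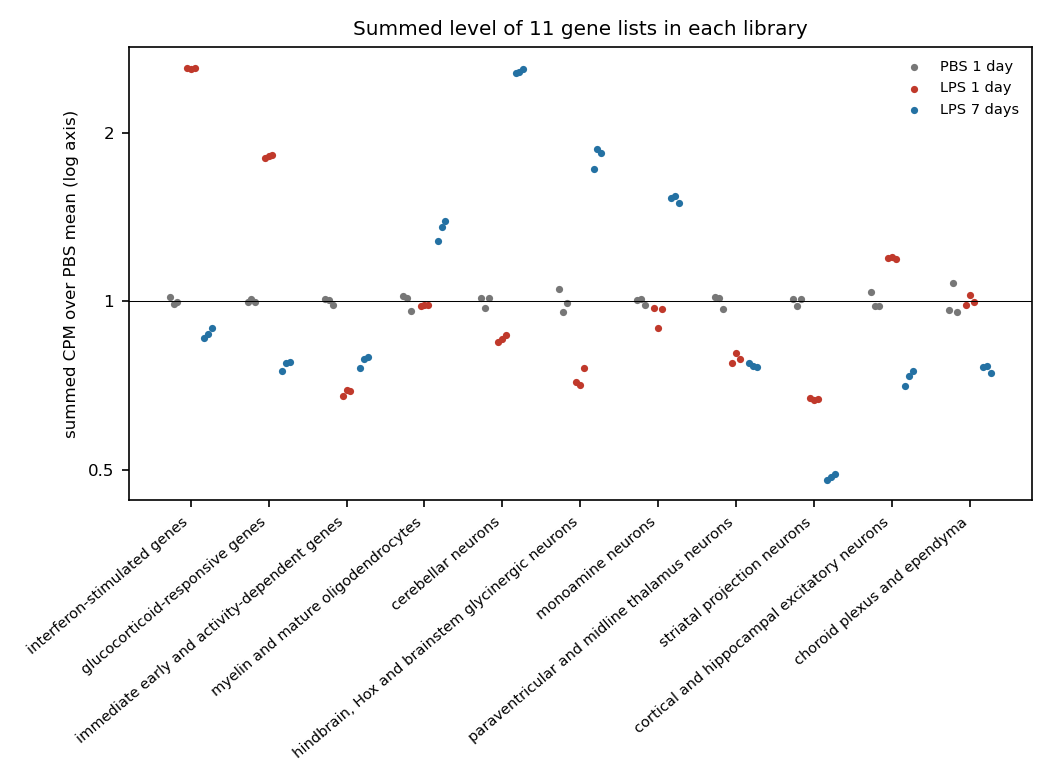
Summed level of the members of 11 gene lists in each library, divided by the mean of the PBS libraries (log axis), with 1 point per library. At 7 days the cerebellar, hindbrain and monoamine sums lie above 1, the striatal, cortical and choroid plexus sums below 1, and the interferon and glucocorticoid sums below 1 after a level above 1 at 1 day.

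Monoamine neuron genes were higher for 13 of 18 tested members and lower for 1 (median 0.80). Of the 18, 6 met the filter only through the libraries at 7 days, and 5 of these are among the 13 called higher. Th, tyrosine hydroxylase, which makes the dopamine precursor, had 14.04, 14.7 and 12.1 CPM in PBS, 12.4, 11.1 and 13.1 CPM at 1 day and 21.3, 23.9 and 22.1 CPM at 7 days. Slc6a3, the dopamine transporter, had 5.64, 4.49 and 4.63 CPM, 11.7, 10.3 and 10.1 CPM and 22.4, 25.4 and 22.9 CPM in that order, so that it was higher at each day than in PBS. The largest rises of the list, named after their values were seen, were those of Slc6a4, the serotonin transporter (4.05 ± 0.62), Dbh, which makes noradrenaline (3.29 ± 0.44), and Tph2, the serotonin-synthesising hydroxylase of the raphe (2.09 ± 0.45). Slc6a4 went from 0, 0.0623 and 0.183 CPM to 1.59, 1.60 and 1.54 CPM. Gata2, also an endothelial factor, was the lower member (-1.02 ± 0.15). Without LPS 1 day replicate 2 there were 2 lower members. The cerebellar and hindbrain sums rose in the same 7 day libraries. For the monoamine genes, too, the region of the tissue and the day cannot be told apart.

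Some hormone transcripts also separated the days. Prl, prolactin, an anterior pituitary hormone, had 4.64, 4.49 and 4.63 CPM in PBS, 0.925, 0.561 and 0.669 CPM at 1 day and 8.70, 10.2 and 10.8 CPM at 7 days, and Gh, growth hormone, had 3.53, 3.10 and 2.59 CPM, 1.08, 1.18 and 0.913 CPM and 9.99, 12.5 and 10.6 CPM. Both were lowest at 1 day and highest at 7 days without overlap. Hcrt, orexin, made by neurons of the lateral hypothalamus that project to the PVT, went from 18.9, 21.8 and 21.2 CPM in PBS through 9.40, 9.84 and 8.58 CPM at 1 day to 31.8, 31.3 and 29.5 CPM at 7 days, a rise of 1.74 ± 0.10 between the LPS days. Its level of at least 8.58 CPM is in every library, although orexin cell bodies lie outside the thalamus. Npy and Sst, neuropeptides of interneurons, fell by 0.62 ± 0.09 and 0.35 ± 0.05 and were already below PBS at 1 day. In the whole hypothalamic and hormone list 10 of 25 were higher and 5 lower (median 0.25), which is 60% called, near the 56.8% of all genes. The filter on low counts was met by 3 of the 25 only through the libraries at 7 days, 1 of them called higher. It was met by 1 only through those at 1 day. As the cerebellar and hindbrain sums rose in the same 7 day libraries, the region of the tissue and the day cannot be told apart for the hormone transcripts.

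Of 23 striatal projection neuron genes 17 were lower and 1 higher (median -0.35), and against PBS all 23 were lower, beside 18.8% of all genes. Ppp1r1b, the dopamine-regulated phosphatase inhibitor DARPP-32, had 309, 311 and 293 CPM in PBS, 232, 252 and 246 CPM at 1 day and 119, 118 and 124 CPM at 7 days. It was lower at each day than before, as was Rasd2, a striatal GTPase (250.3, 237 and 245 CPM to 128, 126 and 130.2 CPM, with 307, 292 and 298 CPM in PBS). Ankk1, a kinase gene beside Drd2, was the member that rose (1.67 ± 0.31) after 0.771, 0.561 and 1.03 CPM at 1 day. Of 24 cortical and hippocampal genes 15 were lower and 2 higher (median -0.40). Nrgn, a calmodulin-binding postsynaptic protein, went from 424, 420.4 and 367 CPM in PBS through 409, 440.3 and 431 CPM at 1 day to 193, 191 and 199 CPM at 7 days, and Camk2a, the calcium-dependent kinase of excitatory synapses, from 2928, 2949 and 2922 CPM to 1422, 1525 and 1567 CPM. The higher members were Neurod1, which cerebellar granule cells also express (8.40, 9.16 and 11.2 CPM to 88.7, 76.7 and 88.4 CPM), and Neurod2 (0.15 ± 0.06), which lost its call under DESeq2 (adjusted p = 0.063) and without LPS 1 day replicate 1 or 2 or LPS 7 days replicate 2 or 3 (0.11, 0.097, 0.29 and 0.059). The summed cortical list was 4445 to 4722 CPM in PBS, 5395 to 5455 CPM at 1 day and 3200 to 3404 CPM at 7 days, higher than PBS at the first day and lower at the second. The cerebellar and hindbrain sums rose 3.01-fold and 2.49-fold between the same libraries, so the region of the tissue and the day cannot be told apart for the striatal and cortical genes either.

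The thalamic nuclei gave mixed counts between the LPS days. Of 24 genes of the paraventricular and midline thalamus 9 were lower, 4 higher and 11 did not pass (54.2% called, near the 56.8% of all genes), with a median of -0.07. Calb2, calretinin, which marks most PVT projection neurons, had 98.1, 101 and 92.3 CPM in PBS, 73.8, 75.9 and 71.6 CPM at 1 day and 162, 154 and 163 CPM at 7 days, a rise of 1.12 ± 0.05. Cerebellar granule cells express calretinin too. Necab1, a calcium-binding protein, stood at 203, 191 and 192 CPM, 144, 153 and 146 CPM and 119.8, 112 and 112 CPM, lower at each day, and Cck, cholecystokinin, fell by 0.37 ± 0.06 between the LPS days. Summed, the list lay at 1085 to 1140 CPM in PBS, 870.5 to 904 CPM at 1 day and 856 to 868 CPM at 7 days. Against PBS, 15 of its 24 genes were lower at 7 days and 1 was higher, beside 18.8% lower and 16.9% higher of all genes. For 24 genes of other thalamic nuclei 15 were lower and 6 higher (median -0.29). Against PBS, 19 genes of that list were lower at 7 days and 4 were higher. The 3 largest rises between the LPS days there, Cbln1 (2.73 ± 0.05), Zic1 (1.65 ± 0.04) and Calb1 (0.98 ± 0.04), are genes of cerebellar neurons as well. Scn4b, a sodium channel subunit, fell from 245, 243 and 246 CPM to 151, 153 and 157 CPM. Choroid plexus and ependymal genes were lower for 10 of 19 and higher for 1 (median -0.27, 57.9% called), with Kl, the klotho protein of choroid epithelium, going from 40.004, 45.5 and 44.2 CPM to 16.2, 14.5 and 16.4 CPM. The higher one, Foxj1, a factor of ciliated cells, lost its call without LPS 1 day replicate 3 (adjusted p = 0.058). Habenular genes were higher for 3 of 18 and lower for 4 (38.9% called), the latter being 2 without LPS 7 days replicate 1. GABAergic genes were higher for 7 of 21 and lower for 10, glutamatergic genes higher for 10 of 24 and lower for 10, and general neuronal genes higher for 10 of 20 and lower for 7. Of 5 tested markers of blood leukocytes and red cells, 1 was lower, Cd4, which is also on the striatal list, and 0 were higher (0 at an unadjusted p under 0.05 with edgeR).

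**Figure D5:**
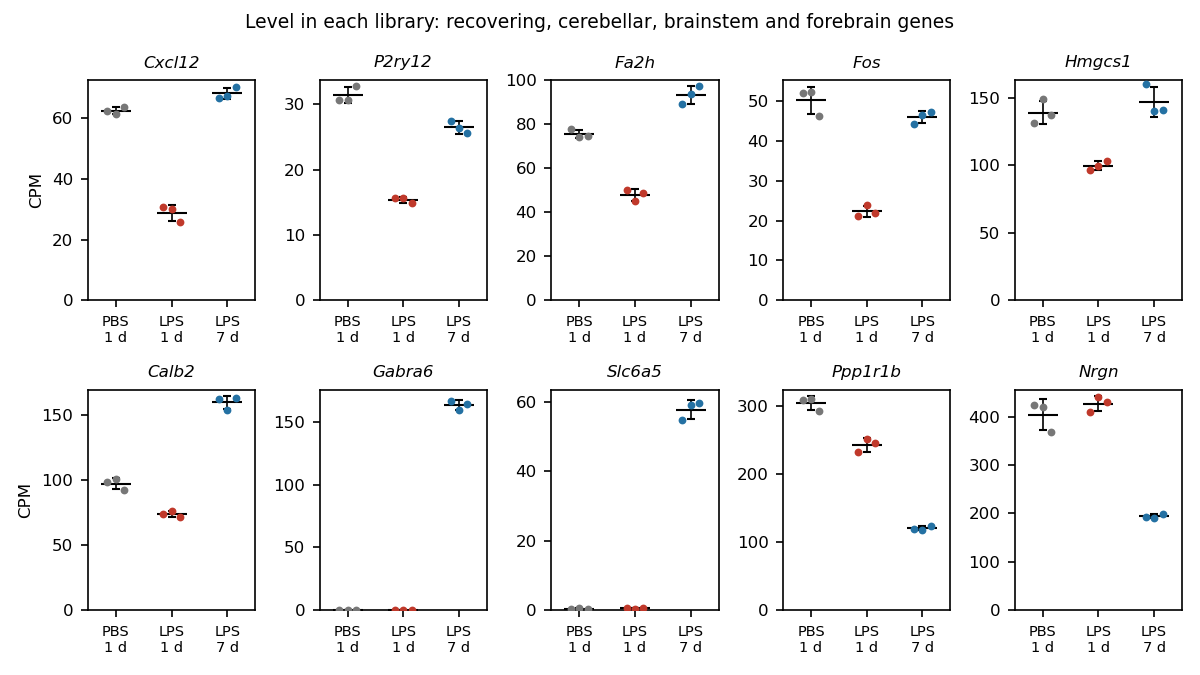
Levels (CPM, linear axes from 0) of 10 genes that recovered, rose or differed by region, with 1 point per library and the mean ± SD of 3 libraries per group. Cxcl12, P2ry12, Fa2h, Fos and Hmgcs1 dip at 1 day and are higher at 7 days, Gabra6 and Slc6a5 appear at 7 days only among these libraries at more than 1 CPM, and Ppp1r1b and Nrgn are lowest at 7 days.

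Myelin genes, expressed by mature oligodendrocytes, were higher for 18 of 22 tested members and lower for 3 (median 0.59), beside 27.6% of all genes higher. The summed level was 6346 to 6755 CPM in PBS, 6484 to 6504 CPM at 1 day and 8461 to 9190 CPM at 7 days. Trf, transferrin, which oligodendrocytes make, went from 295, 317 and 309 CPM in PBS through 235, 223 and 237 CPM at 1 day to 424, 415 and 398 CPM at 7 days, Fa2h, the fatty acid hydroxylase of myelin lipids, from 77.8, 74.5 and 74.6 CPM in PBS through 50.3, 45.1 and 48.7 CPM at 1 day to 89.2, 93.8 and 97.4 CPM at 7 days, and Cnp, a myelin phosphodiesterase, rose by 0.60 ± 0.04. All 3 had been below PBS at 1 day (largest adjusted p 2.7e-12) and were above it at 7 days. Myrf, the transcription factor that drives myelin genes, went the other way, with 95.5, 86.9 and 94.8 CPM in PBS, 113, 114 and 109 CPM at 1 day and 82.1, 95.02 and 91.3 CPM at 7 days, a fall of 0.33 ± 0.05. The brainstem is rich in myelin, the hindbrain sum rose in the same libraries, and its part in the myelin values was not tested.

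Oligodendrocyte precursor genes were higher for 9 of 18 and lower for 5 (median 0.18). Olig1, a lineage factor, went from 167, 179 and 182 CPM in PBS through 113, 112 and 109 CPM at 1 day to 189, 196 and 199 CPM at 7 days, and Gpr17, a receptor of cells about to mature, from 59.5, 59.6 and 61.5 CPM in PBS through 39.2, 38.5 and 35.5 CPM at 1 day to 61.04, 65.5 and 65.3 CPM at 7 days. Both dipped at 1 day and were back at or above PBS at 7 days. Pdgfra, the growth factor receptor of precursors and of fibroblasts, ran opposite and fell by 0.52 ± 0.05. Of 25 genes of cholesterol synthesis and sterol handling 15 were higher and 4 lower (median 0.28), and the median against PBS was 0.002. Hmgcs1, which makes the mevalonate precursor, had 131, 149 and 137 CPM in PBS, 96.7, 99.8 and 103 CPM at 1 day and 160.01, 140.5 and 141 CPM at 7 days. At 7 days it was not called different from PBS (0.08 ± 0.05, adjusted p = 0.2), and Cyp51, the lanosterol demethylase, did the same, with a rise of 0.58 ± 0.05. Abca1, the exporter of cholesterol, was among the 4 lower, with 57.6, 62.1 and 59.8 CPM in PBS, 114, 112 and 108 CPM at 1 day and 61.3, 59.2 and 59.2 CPM at 7 days.

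Immediate early and activity-dependent genes, which neurons induce when they fire, had been below PBS for 26 of 32 members at 1 day (24.2% of all genes were lower). Between the LPS days 14 were higher and 7 lower (median 0.11, 65.6% called against 56.8% of all genes), and at 7 days 23 were below PBS. Fos had 52.1, 52.3 and 46.2 CPM in PBS, 21.2, 23.9 and 21.97 CPM at 1 day and 44.2, 46.6 and 47.2 CPM at 7 days, and its 7 day libraries overlapped PBS (-0.13 ± 0.07, adjusted p = 0.13). Arc, which regulates glutamate receptor trafficking, had 148, 152 and 152 CPM, 63.2, 67.5 and 65.1 CPM and 114, 116 and 114 CPM and remained below PBS (-0.39 ± 0.05, adjusted p = 2.6e-10). Vgf, a neuropeptide precursor, rose by 0.47 ± 0.05 and likewise stayed below PBS. Dusp5, a nuclear ERK phosphatase, rose from 8.79, 9.10 and 12.4 CPM to 29.5, 33.996 and 33.7 CPM, above its 10.6, 9.37 and 11.1 CPM in PBS. Sik1, a salt-inducible kinase, fell further, with 47.4, 43.6 and 38.5 CPM in PBS, 31.1, 33.95 and 34.8 CPM at 1 day and 22.4, 21.4 and 24.3 CPM at 7 days. In the same 7 day libraries the striatal and cortical sums stood at 0.485 and 0.73 of PBS and the cerebellar sum at 2.58. The region of the tissue and the day cannot be told apart for the immediate early genes either. The cAMP response element TGACGTCA was found in 3 of 24 members with a promoter (12.5%), against 478 of 27025 genes (1.77%), and none of the 3 was called in either direction.

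Energy metabolism shifted by little. Of 23 oxidative phosphorylation genes 17 were higher and 0 lower (median 0.23, 0 lower at an unadjusted p under 0.05 with edgeR). Ndufv1, a complex I subunit, went from 76.6, 78.6 and 74.8 CPM to 96.5, 92.98 and 91.3 CPM (0.29 ± 0.05), and Cox4i1, a complex IV subunit, rose by 0.29 ± 0.05. The members ranged from -0.05 to 0.39 on the log2 scale, so none reached a fold of 1.5. Of 27 glycolysis and TCA cycle genes 14 were higher and 4 lower (median 0.11), which is 66.7% called against 56.8% of all genes. Eno1, enolase, had 517, 564 and 534 CPM in PBS, 422, 415 and 404 CPM at 1 day and 556, 558 and 542 CPM at 7 days, within the range of PBS, and Ogdh, of the oxoglutarate dehydrogenase complex, did likewise with 0.31 ± 0.04. Pfkfb3, which stimulates glycolytic flux, ran opposite (-0.45 ± 0.06). Heat shock and unfolded protein genes were higher for 12 of 24 and lower for 4 (median 0.16, 66.7% called). Among them Hspa8, the constitutive chaperone, rose from 896, 889.5 and 866 CPM to 1452, 1405 and 1435 CPM, above its 981, 1047 and 968 CPM in PBS. Of 20 tested cell cycle genes 8 were lower and 0 higher (median -0.39, 0 higher at an unadjusted p under 0.05 with edgeR), which is 40% called against 56.8% of all genes and reads as no result about the list. Among the lower members was Mki67, the proliferation marker, with 2.82, 2.91 and 2.25 CPM in PBS, 4.47, 5.05 and 4.69 CPM at 1 day and 2.02, 1.97 and 2.72 CPM at 7 days. The number of cell cycle genes lower was 5 with DESeq2, 4 without LPS 1 day replicate 3 and 5 without LPS 7 days replicate 2 or 3.

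Acod1, the gene named in the title of the series, encodes the enzyme that makes itaconate, an anti-inflammatory metabolite of macrophages. It had 1, 0 and 1 counts in PBS, 8, 12 and 9 counts at 1 day and 0, 3 and 0 counts at 7 days, and did not pass the filter on low counts. The counts at 1 day were each above those at 7 days, with 29 against 3 counts in all and a ratio of 10.5 (95% counting interval 3.26 to 53.9) that covers counting error only.

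Rises can further be ordered by where they began. Among genes with a mean of at least 1 CPM in PBS and a lower mean at 1 day, the 12 largest rises were En2, Car8, Ppp1r17, Prl, H4c9, Vwa7, Mab21l1, Gh, Uncx, Barhl2, Eomes and Mrgprf. Car8, a carbonic anhydrase-related protein of Purkinje cells, went from 6.17, 7.66 and 5.42 CPM to 200.03, 194 and 189.8 CPM, and En2, a midbrain and cerebellar homeobox gene, from 0.771, 1.12 and 1.83 CPM to 36.6, 41.3 and 43.6 CPM. Of the 12, En2, Car8, Ppp1r17, Barhl2 and Eomes are on the cerebellar list. H4c9, a histone, had 0.940, 0.886 and 1.36 CPM in PBS, 0, 0.187 and 0.122 CPM at 1 day and 1.59, 1.36 and 1.30 CPM at 7 days, and it was the one of the 12 not called different from PBS at 7 days (0.42 ± 0.36, adjusted p = 0.4). Among genes whose level at 1 day lay within 1.2-fold of PBS, the 12 largest rises were Ppp1r17, Barhl2, Cdh15, Zfp385c, Ptpn22, Svep1, Lhx1, Gprc5c, Pvalb, Kcng4, Adamts18 and Prph. Pvalb, parvalbumin, a calcium buffer of fast-spiking and Purkinje neurons, had 27.2, 28.3 and 23.5 CPM in PBS, 24.97, 27.7 and 28.1 CPM at 1 day and 121, 114 and 119 CPM at 7 days. Prph, peripherin, a filament of motor and sensory neurons, went from 3.55, 3.55 and 4.50 CPM to 16.2, 13.9 and 16.03 CPM. For all 12 the libraries at 7 days lay above all others.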

How the data were processed

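Whole-tissue RNA of the PVT was sequenced in 9 libraries, 3 per group. The authors deposited 1 table with read counts and FPKM per gene and library, and with gene positions and length (deposited as other annotation columns). TopHat2, HISAT2, HTSeq and GRCm39 are named in the submitters' processing notes; the sources used here give no versions, roles or strand setting, so overlapping and antisense genes are uncertain. Deposited counts were analysed in R 4.3.3 with edgeR 4.0.16 (filterByExpr with a minimum count of 10 and total of 15, TMM scaling, quasi-likelihood fit of group means over all 9 libraries); the SE is the log2 fold change divided by the root of F. DESeq2 1.42.0 and limma 3.58.1 served as alternatives, with other scalings and filters and each library left out. Deposited FPKM values served only to compare levels between genes. Named genes are the 12 largest falls and rises, 12 rises each from a PBS level that had dipped or held, 6 falls each ending above or below PBS, up to 4 tested members of each of 43 lists by smallest p, up to 2 against the list's direction, and Acod1; some of them are not reported here. Ranked genes needed a mean of at least 1 CPM in the higher group and no overlap of libraries. The genes and lists were chosen with earlier results of these data known. Of 952 list members, 719 had a RefSeq promoter. The code was tested on simulated data.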

Additional observations from a re-analysis of the deposited data

Results flagged for a closer look

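Counts of Y-linked genes, which lie outside the autosomal comparison, were at least 1060 in each of the 6 LPS libraries and at most 1 in each PBS library. Both LPS groups carried these counts and the PBS group did not, as between male and female tissue. The labels give no sex. Sex and LPS cannot be told apart in the differences from PBS, and the part of sex in them was not tested.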

How the results depend on the processing

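The counts of 3943 higher and 4180 lower genes stayed within 1.5 times under every alternative but one: when the change had to exceed 1.5-fold (glmTreat), 536 were higher and 687 lower. Leaving out 1 library at a time gave 3507 to 4007 higher and 3826 to 4242 lower. DESeq2 gave 3644 and 3831, limma-voom 3903 and 4168. Scaling to library totals alone gave 4704 higher and 3559 lower, so 43.1% of calls were lower against 51.5%. Without the cerebellar, hindbrain and monoamine genes 3889 were higher and 4160 lower. With the replicate number as a block 3883 were higher and 4110 lower, of which 3867 and 4106 were shared with the fit without it; same-numbered libraries deviated together with correlations of only 0.0039, 0.0095 and 0.0235, and not every library correlated best with its own number. Of 229 named genes past the threshold, 75 lost their call with glmTreat and 8 under another alternative (Kcnj8, Neurod2, Nfil3, Ccne1, Ciita, Col5a1, Foxj1 and Slc47a1), and 0 of the named genes reversed. Genes of a few counts per library are limited by depth.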
